A study of Mus musculus with 6 samples.

Results

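The genes described here encode α2δ subunits of voltage-gated calcium channels, the family that holds the targets of gabapentinoid drugs. They are Cacna2d1 and Cacna2d2, whose products bind these drugs, and Cacna2d3, whose product does not. They were taken by symbol and make up 3 of the 21959 genes in the table. They were measured by bulk RNA sequencing of mouse paraventricular thalamus, a midline thalamic nucleus, in 6 libraries. The 3 CCI libraries (replicates 1, 2 and 3) came from mice of genotype WT after chronic constriction injury, which loose ligatures around a nerve produce and which models neuropathic pain. The 3 control libraries (replicates 4, 5 and 6) came from untreated mice of genotype WT. Each group had 30 mice per the design text. Strain, sex, age, time after injury and the division of mice among libraries are not given in the sources used here, so p-values measure only the spread between libraries and part of it may be technical.

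An α2δ subunit is a largely extracellular protein, anchored at the outer face of the membrane, that is cut from 1 precursor into an α2 and a δ piece. It raises the number of high-voltage-activated channels at the cell surface and at presynaptic terminals, and α2δ proteins also take part in synapse formation. Gabapentin and pregabalin, which are used against neuropathic pain, bind the products of Cacna2d1 and Cacna2d2 and not those of Cacna2d3 and Cacna2d4. The rise of Cacna2d1 in sensory ganglia after nerve injury is well known, and the comparison of CCI with control asks how these transcripts stand in a thalamic nucleus.

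Cacna2d2 rose in CCI and Cacna2d3 fell, while Cacna2d1 did not pass the test. Any link of these levels to the coding sequence was not tested. A coding stretch in which the drug-binding members differ from the others is shown first. It runs from just before a codon triplet known to be needed for gabapentin binding to just after the metal-binding motif of the von Willebrand factor A domain. The sequences were read from GENCODE M21 transcripts on GRCm38, 5′ to 3′ along the coding strand, with the codon triplet (first block) and the 5 codons of the metal-binding motif (second block) in capitals.
Cacna2d1: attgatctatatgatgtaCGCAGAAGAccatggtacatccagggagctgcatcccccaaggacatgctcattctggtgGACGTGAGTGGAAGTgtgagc
Cacna2d2: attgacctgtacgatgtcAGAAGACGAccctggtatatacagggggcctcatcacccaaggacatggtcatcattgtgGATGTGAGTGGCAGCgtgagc
Cacna2d3: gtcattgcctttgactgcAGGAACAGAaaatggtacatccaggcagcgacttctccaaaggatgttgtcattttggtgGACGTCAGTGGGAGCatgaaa
Cacna2d4: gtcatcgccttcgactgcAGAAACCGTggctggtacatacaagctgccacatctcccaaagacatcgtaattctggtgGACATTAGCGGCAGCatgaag
All 3 codons of the triplet are arginine codons in Cacna2d1 and Cacna2d2, against 2 of 3 in Cacna2d3 and Cacna2d4. Over these 99 bases Cacna2d1 was 78.8% identical to Cacna2d2 and 64.6% identical to Cacna2d3, and Cacna2d3 was 74.7% identical to Cacna2d4. Over the whole coding sequence the same pairs were 58.9%, 49.5% and 62.4% identical, so the split is not particular to this stretch. On GRCm38 the stretch lies on chromosome 5 (16264296 to 16267391, plus strand, exons 8 to 10) for Cacna2d1, on chromosome 9 (107512329 to 107513248, plus strand, exons 8 to 10) for Cacna2d2 and on chromosome 14 (29346965 to 29347153, minus strand, exons 7 to 8) for Cacna2d3. For Cacna2d4 it lies on chromosome 6 (119267836 to 119268262, plus strand, exons 7 to 8).

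Total counts were 7989139 to 10529886 in the CCI libraries and 12337448 to 15438268 in control. Levels are given as CPM, counts scaled to TMM-adjusted library totals of equal size, for comparisons between libraries, and as the deposited FPKM, which is also per kilobase, for comparisons between genes. TMM factors ran from 1.21 to 1.25 among CCI libraries and from 0.686 (replicate 5, which stood apart from the other control libraries) to 0.90 among control libraries. The scales therefore differ between the groups, and log2 fold changes lay 0.51 higher at the median on log2(FPKM + 1). Without control replicate 5 the members stood at 0.15 (Cacna2d1), 1.77 (Cacna2d2) and -0.78 (Cacna2d3). Of 14259 genes tested with edgeR, 52.3% passed an adjusted p of 0.05 (27.0% higher in CCI, 25.3% lower). In 63.0% the CPM of the groups did not overlap (33.6% higher, 29.4% lower). Among the members 2 of 3 passed, 1 in each direction, and the same 2 did not overlap, shares near that background. On log2(FPKM + 1) 57.2% of genes passed in limma and 2 of the 3 members did. With trends on length and GC content removed 47.1% passed and 2 of the 3 members did. Midline thalamus markers were present in both groups, with a summed level of 4565 to 7533 CPM in control and 1259 to 2062 CPM in CCI.

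Cacna2d2 (ENSMUSG00000010066) rose 3.28-fold in CCI. The gene, whose loss causes epilepsy and ataxia in mice, lies on chromosome 9 (107276811 to 107406542, plus strand, GRCm39). It stood at 28.0, 26.0 and 26.5 CPM in CCI replicates 1, 2 and 3 and at 8.57, 9.10 and 6.96 CPM in control replicates 4, 5 and 6. Every CCI library lay above every control library, and the CCI libraries lay close together. The CCI mean was 26.8 ± 1.01 CPM against 8.21 ± 1.12 for control (SD, n = 3), and edgeR put the log2 fold change at 1.71 ± 0.19 (SE, 95% interval 1.29 to 2.13, adjusted p = 0.000273). In all, 908 CCI reads and 266 control reads lie behind these values. Of the tested genes, 6.82% had a larger log2 fold change.

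The rise of Cacna2d2 passed in all 16 alternative ways of processing, with log2 fold changes of 0.80 to 2.19. It was smallest once trends of the counts with gene length, GC content and mean expression had been removed in each library (0.80, adjusted p = 0.0197), and stood at 0.91 with length and GC content alone. Its longest transcript has a GC content of 55.8%, above that of 81.6% of the tested genes. Without each library in turn the log2 fold change was 1.60 to 1.77.

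Cacna2d1 (ENSMUSG00000040118) had similar CPM in the groups. This gene for the main gabapentin-binding subunit of the brain lies on chromosome 5 (16139689 to 16579509, plus strand, GRCm39). It stood at 81.9, 83.5 and 71.9 CPM in CCI replicates 1, 2 and 3 and at 63.3, 64.5 and 76.2 CPM in control replicates 4, 5 and 6. The groups overlapped, since CCI replicate 3 lay below control replicate 6. The log2 fold change was 0.22 ± 0.15 (SE, 95% interval -0.13 to 0.56), which did not pass (edgeR adjusted p = 0.256). The interval leaves room for a rise of up to 0.56 on the log2 scale.

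On the deposited FPKM the same gene stood at 8.24, 8.14 and 7.14 in CCI and at 4.59, 3.56 and 5.32 in control, with no overlap. In CPM 63.0% of all tested genes did not overlap, and the share in FPKM was not counted. The gene then passed as higher in limma on log2(FPKM + 1), at 0.70 ± 0.17 (adjusted p = 0.00956). On that scale the median tested gene had moved up by 0.51. Cacna2d1 has the longest of the 3 members' Length entries, at 12416 bp, longer than 94.6% of the tested genes. With the trend on length removed its log2 fold change was -0.42 (adjusted p = 0.0577), with length and GC content -0.30 (adjusted p = 0.166) and with mean expression added -0.07 (adjusted p = 0.747). The direction of Cacna2d1 thus depended on the processing.

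Cacna2d3 (ENSMUSG00000021991) fell in CCI. The gene, known for a role in heat nociception and central pain processing in flies and mice, lies on chromosome 14 (28626900 to 29443821, minus strand, GRCm39). It stood at 27.3, 28.9 and 38.8 CPM in CCI replicates 1, 2 and 3 and at 44.2, 50.2 and 62.8 CPM in control replicates 4, 5 and 6. All CCI libraries lay below all control libraries, with the highest CCI library (replicate 3) nearest to control. The means were 31.6 ± 6.21 and 52.4 ± 9.52 CPM (SD, n = 3), and edgeR put the log2 fold change at -0.73 ± 0.20 (SE, 95% interval -1.19 to -0.27, adjusted p = 0.0159).

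The call for Cacna2d3 was lost without CCI replicate 1 (-0.63, adjusted p = 0.073), CCI replicate 2 (-0.67, adjusted p = 0.064) or control replicate 6 (-0.58, adjusted p = 0.0633). It was also lost on log2(FPKM + 1), where the log2 fold change was -0.11 (adjusted p = 0.667), and it grew to -1.17 with the trend on length removed. In FPKM the libraries overlapped, at 3.90, 4.01 and 5.48 in CCI and 4.56, 3.95 and 6.24 in control. The gene Lrtm1 lies inside Cacna2d3 on the opposite strand (28740165 to 28755602) and rose by 1.25 ± 0.26 (log2, edgeR adjusted p = 0.0044). The 2 genes shared 0 exon bases in GENCODE M21, and no strand setting is given in the sources used here.

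**Figure D1:**
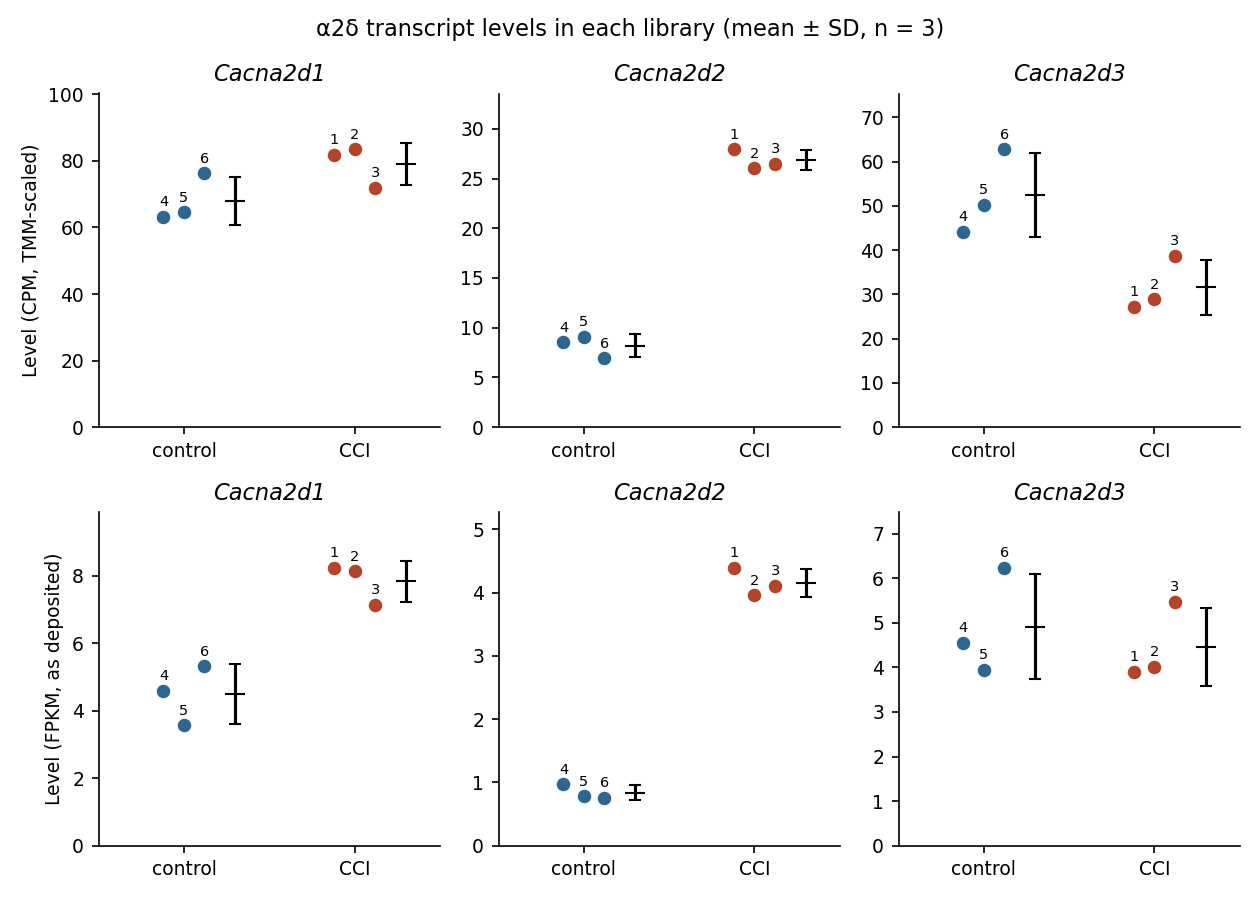
Levels of Cacna2d1, Cacna2d2 and Cacna2d3 in each library, as TMM-scaled CPM (top) and as deposited FPKM (bottom). Points are libraries with their replicate numbers and bars are the mean ± SD (n = 3). Cacna2d2 lies at 26.0 to 28.0 CPM in CCI and 6.96 to 9.10 CPM in control and is separate on both scales. Cacna2d1 is separate only in FPKM and Cacna2d3 only in CPM. Among all tested genes 63.0% were separate in CPM, and the share in FPKM was not counted.

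Ratios between members inside a library do not depend on how libraries are scaled, and none of the 3 ratios overlapped between the groups. Among all pairs of tested genes with reads in every library, 59.2% of ratios did not overlap either, so the absence of overlap is common here. Cacna2d1 exceeded Cacna2d2 by 1.87, 2.05 and 1.74 times in FPKM in CCI replicates 1, 2 and 3, and by 4.73, 4.54 and 7.01 times in control replicates 4, 5 and 6. Cacna2d2 was at 1.13, 0.987 and 0.75 times Cacna2d3 in CCI and at 0.213, 0.199 and 0.121 times in control. This was the widest shift, 2.45 on the log2 scale or 5.45-fold. Cacna2d1 was at 2.11, 2.03 and 1.30 times Cacna2d3 in CCI and at 1.01, 0.902 and 0.852 times in control, a shift of 0.95 on the log2 scale. Each of the 3 ratios gave an exact two-sided permutation p of 0.1 (0.1 after adjustment over the 3), the smallest that 3 against 3 libraries can give.

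The order of the fold changes, Cacna2d2 above Cacna2d1 above Cacna2d3, was the same in all 17 ways of processing. Library scaling and filters hardly enter a gap between 2 genes, so those settings could hardly change the order. Leaving out 1 library reuses the same data. The gap between Cacna2d2 and Cacna2d3 was 1.60 to 2.62 on the log2 scale, that between Cacna2d2 and Cacna2d1 0.79 to 1.75 and that between Cacna2d1 and Cacna2d3 0.74 to 1.18. Both drug-binding members were thus higher relative to Cacna2d3 in CCI, and Cacna2d2 more than Cacna2d1.

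**Figure D2:**
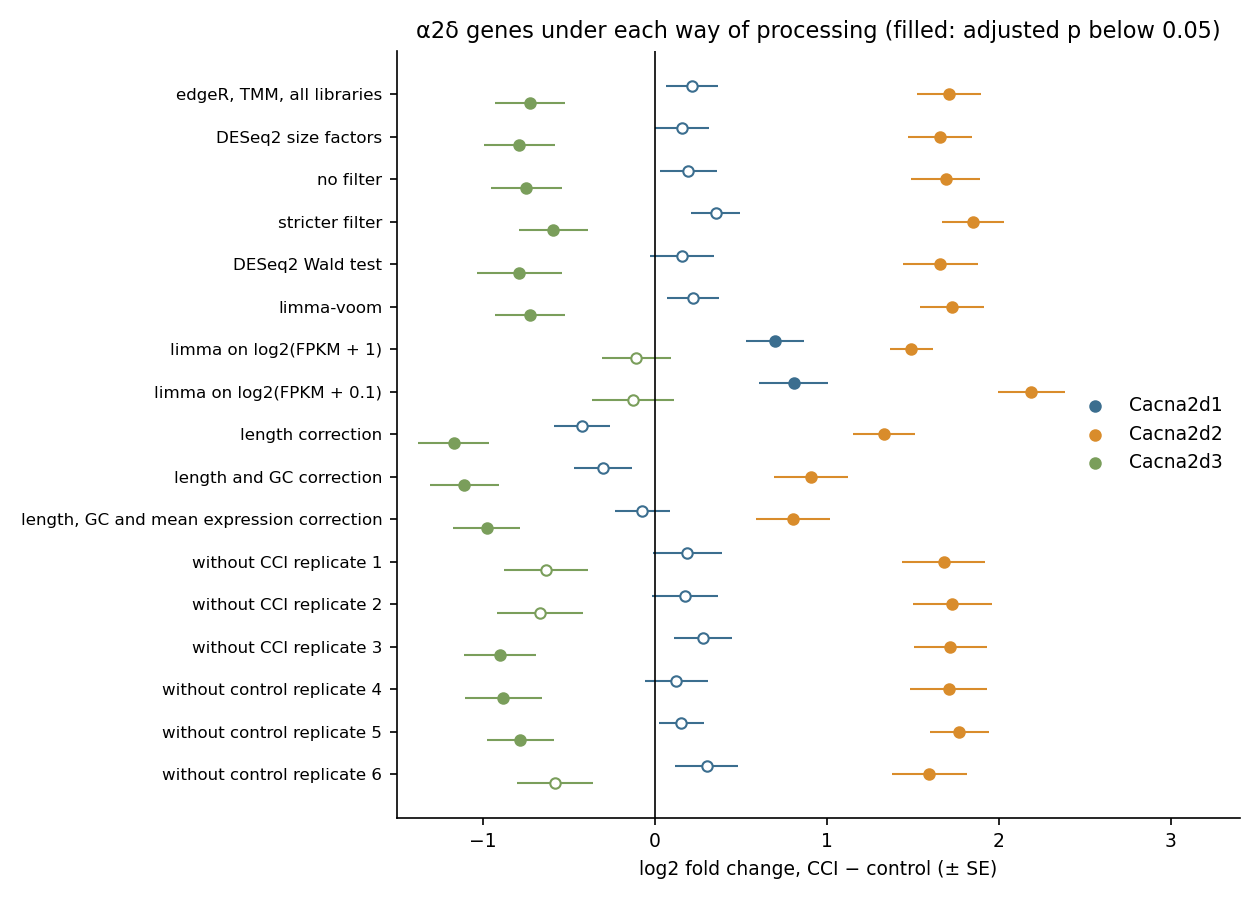
Log2 fold changes (CCI minus control, ± SE) of the 3 members under 17 ways of processing, with filled points where the adjusted p is below 0.05. Cacna2d2 is to the right of 0 and filled in every row, Cacna2d1 crosses 0, and Cacna2d3 is to the left of 0 but open in 5 rows.

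The makeup of the α2δ transcripts differed accordingly. Cacna2d2 made up 26.6%, 24.6% and 24.6% of the summed FPKM of the 3 genes in CCI and 9.59%, 9.46% and 6.16% in control. Cacna2d3 made up 23.6%, 24.9% and 32.8% in CCI and 45.1%, 47.6% and 50.7% in control. The share of Cacna2d1 overlapped, at 42.7% to 50.5% in CCI and 42.9% to 45.3% in control. The sum itself overlapped between the groups on the CPM scale, at 137.1 to 138.5 CPM in CCI and 116 to 146 CPM in control. In FPKM it did not overlap, at 16.1 to 16.7 in CCI and 8.30 to 12.3 in control. The share of all genes without overlap in FPKM was not counted.

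**Figure D3:**
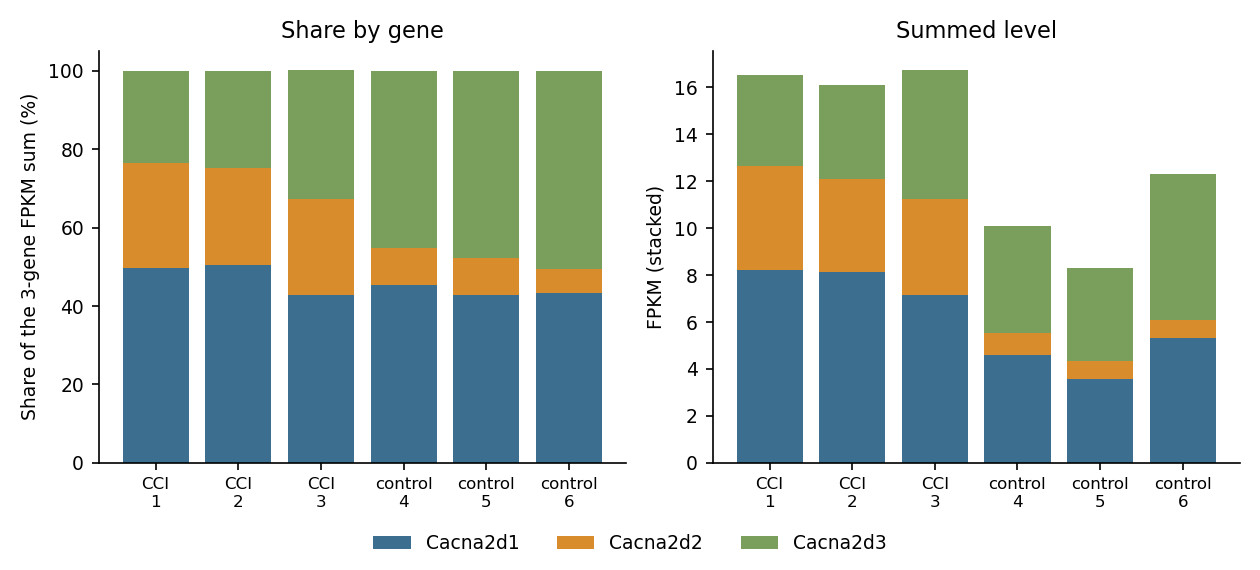
Share of each gene in the summed FPKM of Cacna2d1, Cacna2d2 and Cacna2d3 (left, percent) and the stacked FPKM (right) in each library. The Cacna2d2 band takes 24.6% to 26.6% in CCI and 6.16% to 9.59% in control, the Cacna2d3 band narrows, and the Cacna2d1 band keeps a share between 42.7% and 50.5%.

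Cacna2d4, the fourth gene of the family, which is best known from the retina, fell in CCI on the CPM scale. It stood at 12.8, 14.1 and 9.71 CPM in CCI and at 21.1, 22.2 and 24.6 CPM in control, a log2 fold change of -0.90 ± 0.20 (edgeR adjusted p = 0.00597). With trends on length and GC content removed it was at -1.58. On log2(FPKM + 1) its log2 fold change of -0.19 did not pass (adjusted p = 0.283). Compared per length in control, Cacna2d3 (4.92 ± 1.19 FPKM) and Cacna2d1 (4.49 ± 0.88) lay within each other's spread, followed by Cacna2d4 (1.96 ± 0.32) and Cacna2d2 (0.838 ± 0.115, SD, n = 3). In CCI, Cacna2d1 was highest (7.84 ± 0.61 FPKM), Cacna2d2 (4.16 ± 0.22) lay within the spread of Cacna2d3 (4.46 ± 0.88), and Cacna2d4 was lowest (1.58 ± 0.28). Cacna2d2 and Cacna2d4 changed places between the groups.

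The pores that α2δ subunits serve were tested next. Of the 7 high-voltage pore genes 5 were tested, and all 5 rose (median log2 fold change 0.97), against 27.0% higher and a median of 0.06 among all tested genes. Cacna1b, the N-type pore of presynaptic terminals, rose from 46.8 ± 8.92 to 87.3 ± 0.30 CPM (0.90 ± 0.17, edgeR adjusted p = 0.00287). Cacna1a, the P/Q-type pore, rose by 2.02 ± 0.23, and the L-type pores Cacna1d and Cacna1c by 1.68 ± 0.18 and 0.97 ± 0.16. Cacna1e, the R-type pore and the other most abundant one per length, rose by 0.97 ± 0.31, a call that was lost when CCI replicate 1 (0.93) or 3 (0.73) or control replicate 4 (0.93) or 6 (0.73) was left out. With trends on length and GC content removed 2 of these 5 genes passed as higher, against 2940 of all 14241 genes tested. There Cacna1b was at 0.17 (adjusted p = 0.398), Cacna1c at -0.08 and Cacna1e at -0.04, while Cacna1a (0.77) and Cacna1d (0.90) still passed. With mean expression added these 2 stood at 0.62 and 0.53 and passed, as did Cacna1b (0.53).

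The level of α2δ transcripts was also set against that of the pores inside each library. The summed FPKM of Cacna2d1, Cacna2d2 and Cacna2d3 was 0.561 to 0.703 times that of the 7 high-voltage pore genes in CCI. In control it was 1.11 to 1.37 times, with no overlap. Ratios between single genes did not overlap in 59.2% of all pairs either, so the absence of overlap is common here. The pore sum was 22.9 to 29.8 FPKM in CCI and 7.08 to 9.09 FPKM in control, a wider gap than that of the 5 tested pore genes on the CPM scale (289 to 406 against 152 to 186). Library scaling does not enter this ratio, but a trend on length does, and its part in the ratio was not tested.

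All 3 T-type pore genes, which are not classical α2δ partners and carry thalamic burst firing, rose as well (median 1.35). The share higher among all tested genes was 27.0%, with a median of 0.06. Cacna1g, the main T-type gene of thalamic relay cells, rose by 0.59 ± 0.20, Cacna1i by 1.35 ± 0.21 and Cacna1h, from a low control level of 1.74 ± 1.08 CPM, by 2.17 ± 0.46 (log2). The call for Cacna1g was lost without any 1 CCI library or without control replicate 4 (0.54 to 0.65). It turned to -0.51 (adjusted p = 0.0235) with trends on length and GC content removed. There 1 of the 3 was higher and 1 lower, against 2940 higher and 3764 lower of all 14241 genes tested. Cacna1i was at 0.17 (edgeR adjusted p = 0.549) and Cacna1h at 1.03 (edgeR adjusted p = 0.0446). With mean expression added none of the 3 passed, against 2674 higher and 2704 lower among all genes tested. The edgeR adjusted p was then 0.185 for Cacna1h (0.65), 0.864 for Cacna1i (0.055) and 0.14 for Cacna1g (-0.29). Of the 4 cytoplasmic β subunit genes, which carry pores to the membrane, 1 rose, a share near the 27.0% of all tested genes. It was Cacnb2, by 0.99 ± 0.15. The most abundant β genes per length, Cacnb3 (0.35 ± 0.33) and Cacnb4 (0.30 ± 0.15), did not pass. Cacnb4 passed as higher with the stricter filter (0.44, adjusted p = 0.0361) and on log2(FPKM + 1) (0.80, adjusted p = 0.00722), and was at -0.16 with the trend on length removed. Cacnb2 did not pass with the trend on length removed (0.32, adjusted p = 0.112).

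Among 6 tested genes of the γ family, most of which encode AMPA receptor auxiliary proteins, 1 rose and 1 fell. Both counts lay below the shares among all tested genes, 27.0% higher and 25.3% lower. Cacng3 fell from 66.0 ± 7.86 to 24.8 ± 5.03 CPM (-1.42 ± 0.20, edgeR adjusted p = 0.000694) and Cacng7 rose by 1.61 ± 0.41. Cacng2, stargazin, was at -0.06 ± 0.20 and did not pass. Cacng3 and Cacng7 kept their calls in all alternatives that tested them.

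**Figure D4:**
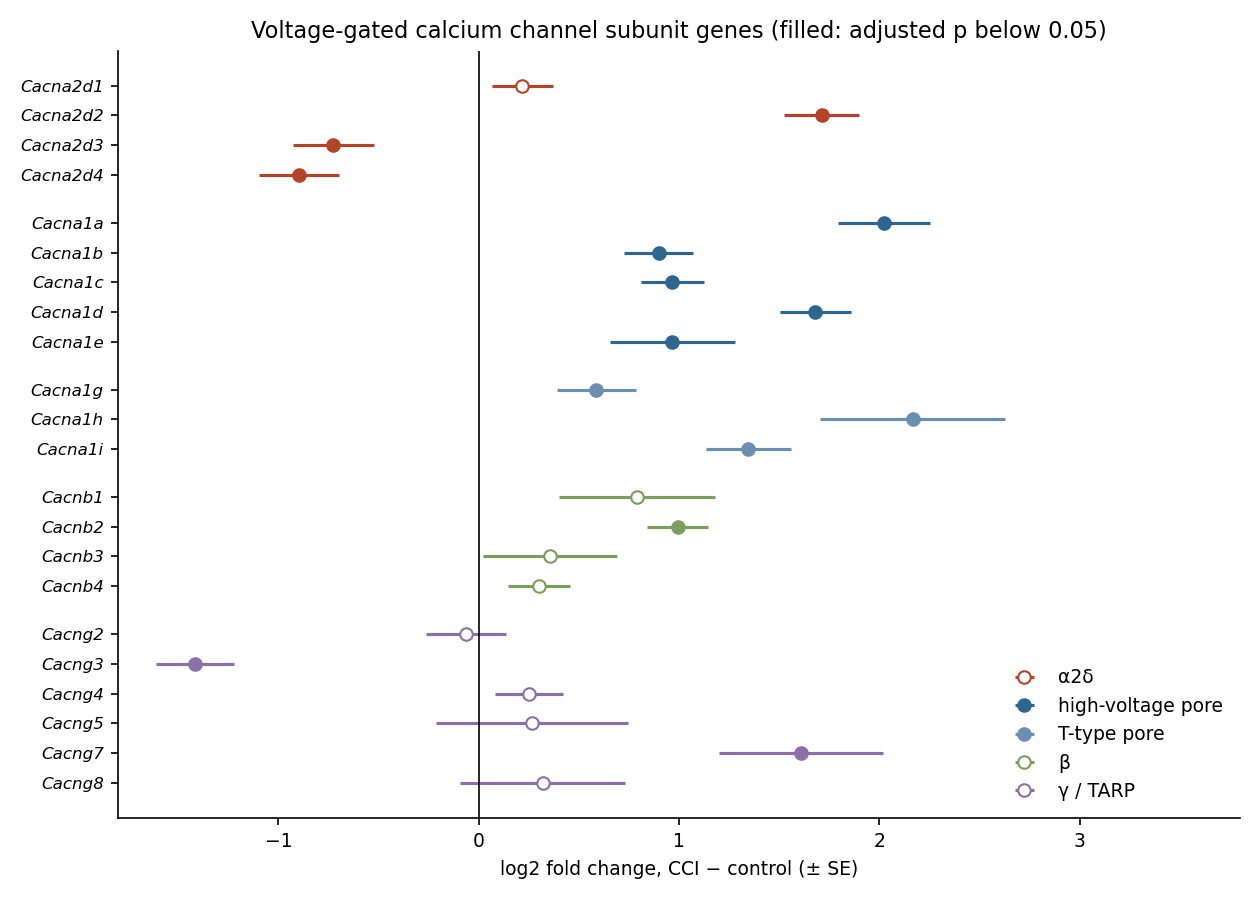
Log2 fold changes (CCI minus control, ± SE) of the tested calcium channel subunit genes by class, with filled points where the edgeR adjusted p is below 0.05. All 8 pore genes lie to the right of 0, whereas the 4 α2δ genes run from -0.90 (Cacna2d4) to 1.71 (Cacna2d2).

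Genes for proteins reported to bind α2δ subunits went both ways, with 7 of the 12 tested higher, 2 lower and 3 not past the threshold (median 0.86). Among all tested genes 27.0% were higher and 25.3% lower, with a median of 0.06. The NMDA receptor genes, whose products associate with the Cacna2d1 protein, were split. Grin2a fell from 508 ± 285 to 109 ± 20.8 CPM (-2.22 ± 0.37, edgeR adjusted p = 0.00163), while Grin1 (1.11 ± 0.33) and Grin2b (0.92 ± 0.26) rose. The AMPA receptor genes Gria1 (0.95 ± 0.28) and Gria2 (1.07 ± 0.22) and the BK channel gene Kcnma1 (1.15 ± 0.28) rose too. Among the thrombospondins, astrocyte-secreted ligands of the α2δ-1 protein, Thbs3 rose by 0.79 ± 0.22, Thbs1 (1.12 ± 0.52) and Thbs2 (-0.53 ± 0.24) did not pass, and Thbs4 had too few counts to be tested. The endocytic receptor gene Lrp1, which takes part in α2δ trafficking, rose by 0.81 ± 0.17, and the prion protein gene Prnp (-0.40 ± 0.22) did not pass. Calls were lost for Gria1 without CCI replicate 3 (0.60) or control replicate 6 (0.83), Grin1 without CCI replicate 3 (0.96), Grin2b without control replicate 4 (0.82) and Thbs3 without CCI replicate 2 (0.66). Prnp passed as lower without control replicate 5 (-0.57) and in the DESeq2 Wald test (-0.45, adjusted p = 0.0495). Grin2b was at 0.55 without CCI replicate 3. With trends on length and GC content removed 1 of the 12 was higher and 4 were lower, against 2940 and 3764 of 14241 genes. Lrp1 was at -0.65 there (adjusted p = 0.00378). Grin1 (0.0037), Grin2b (0.0044), Gria2 (0.20), Kcnma1 (0.47) and Thbs3 (0.49) did not pass there.

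Of 9 genes of the presynaptic active zone, where α2δ subunits place channels, 5 rose, 1 fell and 3 did not pass (median 0.41). The shares among all tested genes were 27.0% higher and 25.3% lower, with a median of 0.06. The vesicle priming gene Unc13a rose by 1.17 ± 0.18, Rimbp2 by 1.11 ± 0.23, the scaffold genes Erc2 and Pclo by 1.06 ± 0.18 and 0.77 ± 0.16 and Rims1 by 0.41 ± 0.15 (log2). The membrane fusion gene Snap25 fell by 1.92 ± 0.29, and the calcium sensor gene Syt1 was at -0.25 ± 0.19 and did not pass. Syt1 passed as lower with the trend on length removed (-0.67, edgeR adjusted p = 0.02). With trends on length and GC content removed 1 of the 9 genes was higher and 2 were lower. The call for Rims1 was lost when any library but control replicate 5 was left out (0.29 to 0.44), and with DESeq2 size factors (0.35), no filter (0.38), the DESeq2 Wald test (0.35) or the trend on length removed (0.0088). With length and GC content Unc13a (0.12), Rimbp2 (0.41), Pclo (-0.067) and Rims1 (0.17) did not pass. Over these 7 lists, with Cacna2d4, 22 of 40 tested genes rose and 5 fell, against 27.0% and 25.3% of all tested genes. With that correction 6 were higher and 9 lower, against 2940 higher and 3764 lower of the 14241 genes tested there. Those 2 list counts were no larger than the all-gene shares.

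Markers of other cell types and regions were read in the same libraries, against 27.0% higher and 25.3% lower among all tested genes. The marker counts come from the edgeR fit without correction for length or GC content. Of 10 pan-neuronal markers 1 was higher, 3 were lower and 6 did not pass. Their summed level was 3821 to 4218 CPM in CCI and 7713 to 10170 CPM in control. Snap25 held a large part of it, at a mean of 1472 CPM in CCI and 5553 CPM in control. Of 9 tested midline thalamus markers none was higher and 6 were lower. Of 8 habenula markers none was higher and 5 were lower (440 to 979 CPM in CCI, 1547 to 2712 in control). Markers of hippocampal and cortical excitatory neurons were higher in 7 of 9 (169 to 221 CPM against 62.6 to 85.6). Prox1 held a large part of that sum (90.3 ± 14.3 CPM in CCI). Neurod6 was uneven between the CCI libraries (21.8 ± 31.1 CPM, SD, n = 3). GABAergic and reticular thalamic markers were higher in 6 of 9, and their summed levels reached from 126 to 408 CPM in CCI and from 70.8 to 122 CPM in control.

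Among glia, markers of oligodendrocyte precursors were higher in 5 of 7 (477 to 595 CPM against 135 to 162) and of oligodendrocytes in 5 of 7 (17600 to 23130 CPM against 6770 to 13570). Astrocyte markers were higher in 2 of 8 and lower in 1 (2584 to 3415 CPM against 3196 to 4349), and microglia markers were higher in 1 of 6 (97.7 to 139 CPM against 85.0 to 99.6). Endothelial and mural markers were higher in 2 of 7 and lower in 2 (214 to 259 CPM against 296 to 380). For astrocyte, microglia, endothelial and mural markers these counts lay near or below the all-gene shares of 27.0% higher and 25.3% lower. Of 4 choroid plexus markers none passed (1985 to 2841 CPM against 278 to 4112). Among the cerebellar markers Car8 was lower, as was Calb1, which is also counted among the habenula markers. Pcp2 and Gabra6 had too few counts to be tested. None of the listed markers was at 0 in all libraries. In bulk tissue, fewer cells of a type, less RNA per cell and a difference in the piece of tissue taken cannot be told apart. The part of these markers in the α2δ results was not tested.

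The genes whose CPM ran most like each member over the 6 libraries were found by the root mean square difference of centred log2 CPM, among 11676 genes of at least 1 FPKM. Nearest to Cacna2d2 were Tob2 (0.0747), Nfat5 (0.0774) and Cdk5rap2 (0.0849), with log2 fold changes of 1.72, 1.65 and 1.78. Nearest to Cacna2d1 were Taf11 (0.0273), Fjx1 (0.0664) and Slc25a16 (0.0665). Nearest to Cacna2d3, and at a wider distance, were Wsb2 (0.13), Zhx1 (0.131) and Plpbp (0.134), with log2 fold changes of -0.57, -0.60 and -0.66. Their calls were lost without CCI replicate 1 (-0.44, -0.53 and -0.55), and those of Wsb2 and Zhx1 also without CCI replicate 2 or control replicate 6, as was that of Wsb2 without control replicate 4 (-0.64). Within a difference of 0.2 there were 730 genes for Cacna2d1, 149 for Cacna2d2 and 122 for Cacna2d3.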

How the data were processed

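The 6 libraries were compared as 3 CCI against 3 control, with groups taken from the titles. Per the file headers, the authors deposited read counts and FPKM by gene and library, with gene Length in bp. The submitters' processing notes list GRCm39, StringTie 2.2.1, DESeq 1.38.3, HTSeq 0.9.1, HISAT2 2.1.0 and fastp 0.22.0. The deposited FPKM equals count per Length and per column total. Counts were tested as deposited with edgeR 4.0.16 in R 4.3.3 (TMM scaling, filterByExpr, quasi-likelihood F-test) over all genes, with Benjamini-Hochberg adjustment and a threshold of 0.05. Standard errors were taken as log2 fold change over the root of F. Ratios of FPKM were compared by exact permutation with scipy 1.17.1.

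Alternatives used DESeq2 1.42.0, limma 3.58.1 (voom, and log2(FPKM + 1) and log2(FPKM + 0.1)), no filter, a filter of 10 CPM in 3 libraries, each library left out, and per-library spline offsets (4 df) on Length. Offsets with GC content (longest GENCODE M21 transcript, matched by Ensembl identifier for 99.9% of tested genes) and mean expression were added after the data were seen. The edgeR, DESeq2, voom and length-offset fits were also run on simulated counts, with outcomes not reported here. The offsets with GC content and mean expression, limma on FPKM and the permutation test were not run on them. The members and lists were chosen with earlier results of these data known. Named were the members, Cacna2d4, list genes that passed or were the 2 most abundant of their list per length, other list genes where a count turned on them, and the 3 genes nearest to each member; the values of 1 list gene are not reported here. Library totals of 7989139 to 15438268 counts limit the precision.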

Additional observations from a re-analysis of the deposited data

How the results depend on the processing

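No paired analysis was possible because the groups share no replicate number. Cacna2d2 passed as higher in all 16 alternatives. Cacna2d1 passed on log2(FPKM + 1) (0.70) and log2(FPKM + 0.1) (0.81), and turned to -0.42 with the length correction, -0.30 with length and GC and -0.073 with mean expression added. Cacna2d3 was lower in all 16 and lost its call on log2(FPKM + 1) (-0.11), on log2(FPKM + 0.1) (-0.13) and when CCI replicate 1 or 2 or control replicate 6 was left out. Leaving out 1 library gave 0.12 to 0.30 for Cacna2d1, 1.60 to 1.77 for Cacna2d2 and -0.90 to -0.58 for Cacna2d3, 5511 to 8975 called genes and 21 to 31 called list genes, against 27 in all libraries. It gave log2 ratio shifts of -1.61 to -1.30 (Cacna2d1 to Cacna2d2), 0.82 to 1.17 (Cacna2d1 to Cacna2d3) and 2.19 to 2.61 (Cacna2d2 to Cacna2d3). Called list genes were 17 with the length correction and 15 with length and GC. On log2(FPKM + 1) 83.2% of called genes were higher, against 51.6%.

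Signs of other named genes turned as follows. With the length correction Cacna1e was at -0.067, Cacnb4 -0.16, Grin2b -0.12, Lrp1 -0.042 and Pclo -0.20. With length and GC, Cacna1c was at -0.084, Cacna1e -0.043, Cacna1g -0.51, Cacnb3 -0.22, Cacnb4 -0.011, Fjx1 -0.19, Lrp1 -0.65, Pclo -0.067, Taf11 -0.24 and Prnp 0.020. With mean expression added, Cacna1c was at -0.27, Cacna1g -0.29, Fjx1 -0.12, Lrp1 -0.42, Cacng2 0.056, Prnp 0.95 and Syt1 0.36. Of these, Lrp1 passed as lower (edgeR adjusted p = 0.0302) and Prnp as higher (edgeR adjusted p = 0.0206). Cacng2 was at 0.071 with the stricter filter, 0.48 and 0.54 on log2(FPKM + 1) and log2(FPKM + 0.1) and, with 1 library left out, between -0.25 (without control replicate 5) and 0.052 (without control replicate 6). Prnp was at 0.21 on both FPKM scales and Syt1 at 0.34. The cause of these changes was not tested. Cacna2d2 had 266 reads in control, which limits its precision there.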
